A study of Mus musculus with 12 samples.

Results

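The 7 mammalian sirtuins, Sirt1 to Sirt7, were followed in the hearts of mice that lack Sdhaf4 in striated muscle. The members were the rows of the count table that carry these symbols, 7 of 43686 rows, 1 row for each gene, and all 7 were among the 17155 rows with enough counts to be tested. Ventricular wall RNA was sequenced from 6 control hearts (WT) and 6 mutant hearts (KO), 1 library per mouse label, in C57BL/6 mice (C57BL/6J in the study's methods) of 2 months by the labels. The study's text gives a younger age for the RNA work, and its reporting summary lists for omics work an age close to that of the labels beside a younger one. That summary names male mice for omics work, and the methods describe the controls as littermates. Both groups carried floxed Sdhaf4 alleles (Sdhaf4fl/fl); the KO mice (Sdhaf4Ckmm, labelled Sdhaf4-/-) also carried Ckmm-Cre, which is active in skeletal and cardiac muscle, so the other cell types of the ventricular wall kept the gene, and the controls had no Cre.

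Sirtuins remove acetyl and other acyl groups from lysine residues and consume NAD+ in doing so, which ties their activity to the energy state of the cell. SIRT1, SIRT6 and SIRT7 are found mainly in the nucleus, SIRT2 mainly in the cytoplasm, and SIRT3, SIRT4 and SIRT5 in mitochondria. In the heart, SIRT3 is known as the main mitochondrial deacetylase and acts on enzymes of fatty acid oxidation, the TCA cycle and the respiratory chain, complex II among them, the complex that SDHAF4 helps to assemble.

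Promoter sequences of the 7 genes were read from RefSeq (assembly GRCm38.p6, another assembly than that of the count table), which gave 9 windows of 300 bases around the annotated starts, 2 each for Sirt3 and Sirt6. Stretches that set members apart are shown, 5′ to 3′ on the strand of the gene, with the match in capitals. They are the match to the element of the estrogen-related receptors (TCAAGGTNA) in Sirt3, the gene that changed in the comparison below, the match to the 10-base NRF1 site in Sirt6, whose letters are the capitals of its stretch, and the pair of E-boxes (CACGTG) in Sirt1.
Sirt3, chr7:140882310-140882339, minus strand: gttgcggtcgTCAAGGTAAccgcgttcttg
Sirt6, chr10:81627690-81627719, minus strand: catcaggaggGCGCATGCGCtctggaaaga
Sirt1, chr10:63339133-63339162, minus strand: gcggcgcccggcCACGTGacccggcgtgtt
Sirt1, chr10:63339061-63339090, minus strand: ggaggggcgggtCACGTGacggggtttaaa
Searched on both strands, TCAAGGTNA stood in 1.14% of the 32851 promoter windows of the table and, of the sirtuins, in that of Sirt3, at bases -20 to -12 from 1 of its starts. The NRF1 site was found in 0.971% of all windows and CACGTG in 7.15%, and among the sirtuins each stood in 1 gene. The cores of the hypoxia response element, ACGTG (which every CACGTG contains) and GCGTG, were more common, at 19.6% and 32.4% of all windows. ACGTG was found in Sirt1, Sirt4, Sirt5 and Sirt6, and GCGTG in Sirt1, Sirt2, Sirt4 and Sirt5, and neither in Sirt3 or Sirt7. Such matches describe the letters of these windows and no more.

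The libraries held between 23747014 and 27159228 counted reads in WT and between 26542930 and 31393393 in KO. The targeted gene checked the labels: Sdhaf4 was at 25.2 ± 5.80 CPM (counts scaled to library size with edgeR's TMM factors; SD, n = 6) in WT and at 2.40 ± 0.170 (SD, n = 6) in KO. None of 10 cardiomyocyte markers was at 0 in all libraries, and they had a summed level of 55530 to 60740 CPM in WT and 47650 to 61780 in KO. Summed marker levels, here and below, were scaled to the total reads of each library, without the TMM factors.

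Levels of the 7 genes were compared per gene length, as FPKM (fragments scaled to gene length and library size, computed by the authors). Sirt2, the cytoplasmic deacetylase of tubulin and other proteins, had the highest level in WT hearts, 79.7 ± 3.49 FPKM (SD, n = 6). Sirt3 followed with 53.4 ± 2.76 FPKM, and Sirt5, the mitochondrial enzyme that removes succinyl, malonyl and glutaryl groups, with 23.3 ± 2.17. Sirt4, a mitochondrial sirtuin that acts on glutamate dehydrogenase and on other enzymes of fuel use, was at 11.1 ± 0.903 FPKM. Sirt7, a nucleolar deacetylase linked to rRNA transcription, was at 11 ± 0.971 FPKM. Sirt1, the nuclear deacetylase of histones and transcription factors, was at 7.81 ± 0.744 and Sirt6, which acts on chromatin and in DNA repair, at 5.47 ± 0.841 FPKM.

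The ranges of neighbours in this order did not overlap in WT, except for Sirt4 and Sirt7, where Sirt4 was the higher in 4 of 6 hearts, and for Sirt1 and Sirt6, where the ranges met although Sirt1 was the higher in 6 of 6 hearts. In KO the order was the same but for Sirt7 and Sirt4, which changed places (10.8 ± 0.614 and 10.6 ± 0.914 FPKM, SD, n = 6) and which again were not separated beyond their spread. The order below Sirt2 and Sirt3 depended in part on the length used: with counts per kilobase of the table's gene length, 5 of 7 members in WT and 4 of 7 in KO stayed at their rank.

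**Figure D1:**
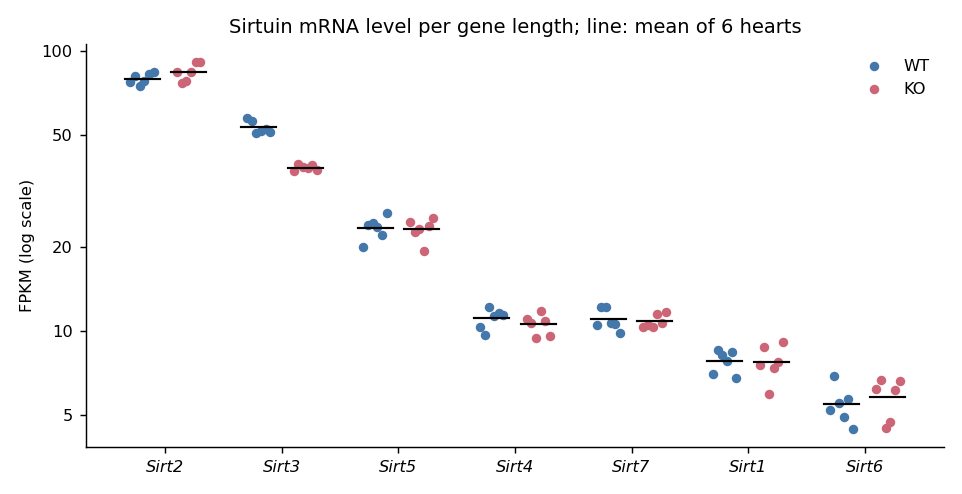
mRNA level of the 7 sirtuin genes in FPKM on a log scale, in order of the WT mean; each point is 1 heart (6 WT, 6 KO) and each line a group mean. Sirt2 lies highest in both groups, and the WT and KO points separate for Sirt3, with means of 53.4 and 38.3 FPKM.

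KO hearts were then compared with WT hearts to ask which sirtuin mRNAs differ in these mutants, whose complex II assembly the study found disrupted. The study also reports progressive dilated cardiomyopathy in the mutants, and this comparison cannot tell apart the loss of complex II and the heart disease. Of the 7 genes, 1 was lower in KO, Sirt3, and 0 were higher with an adjusted p below 0.05 in the quasi-likelihood test of edgeR, adjusted over all rows tested, where 25.5% of all rows tested were called lower, 25.6% higher and 51.1% in either direction. At an unadjusted p under 0.05 the numbers were the same, 1 lower and 0 higher, as they were with DESeq2 and with limma-voom at an adjusted p under 0.05. None of the 7 passed the stricter thresholds of the study's methods, an adjusted p under 0.005 with a log2 fold change over 1 in either direction, which 10.2% of all rows passed. Without WT replicate 6 and KO replicate 3, libraries that lay apart from their group in Tnni3 and Pdgfrb (markers of cardiomyocytes and mural cells), Sirt3 was again the 1 gene called lower and 0 were called higher.

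Sirt3 (MGP_C57BL6NJ_G0033691; chromosome 7, 151338081 to 151356772, minus strand, on the C57BL/6NJ assembly of the table) ranged from 47.9 to 55.5 CPM in the WT hearts, with a median of 51.05. In the KO hearts it ranged from 35.2 to 38.3 CPM, with a median of 37.2. Every KO heart was below every WT heart, and the KO hearts lay close together, with a coefficient of variation of 3.21% against 5.14% in WT.

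Mean Sirt3 was 51.4 ± 2.64 CPM in WT and 36.9 ± 1.18 CPM in KO (SD, n = 6). The log2 fold change was -0.48 with a standard error of 0.048 (edgeR, adjusted p = 3.82e-07). This is a change of -28.2%, with a 95% interval from -33.1% to -23.0%. A two-sided exact permutation test over the 12 hearts gave p = 0.002165, the smallest that 6 against 6 allow. Groups without overlap were found in 30.1% of all rows tested, and 13.7% of the rows were called lower with a log2 fold change at or below that of Sirt3, so a fall of this size was common in these hearts. Between 1003 and 1466 reads per library stood behind these values.

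**Figure D2:**
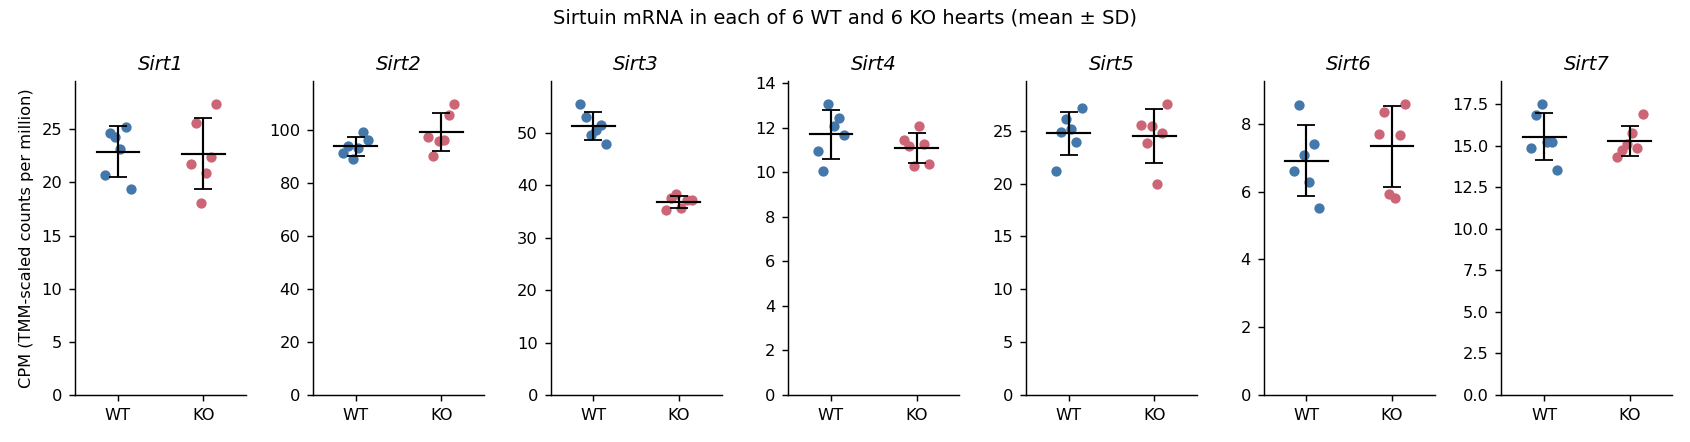
Level in CPM (counts scaled to library size with TMM factors) of each sirtuin in the 6 WT and 6 KO hearts; points are hearts, and bars the mean ± SD, on axes that start at 0. The Sirt3 points of KO (35.2 to 38.3 CPM) all lie below those of WT (47.9 to 55.5 CPM), and the groups overlap for the other genes.

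In bulk tissue, less Sirt3 mRNA per cell and fewer cells that express it cannot be told apart. Of the cardiomyocyte markers, 5 of 10 were lower in KO (Tnni3, Pln, Myl2, Myl3 and Ryr2) and 1 higher (Mybpc3), with a median log2 fold change of -0.25. Of the fibroblast markers 7 of 8 were higher and 0 lower (median 0.90), with a summed level of 1250 to 1396 CPM in WT and 2246 to 3880 in KO. Of 8 endothelial markers 5 were higher (Vwf, Egfl7, Emcn, Pecam1 and Kdr) and 1 lower (Tek), and of 8 mural markers 4 were higher (Pdgfrb, Des, Notch3 and Rgs5) and 1 lower (Acta2), with summed levels of 1453 to 1682 and 3120 to 3455 CPM in WT and of 1640 to 2043 and 3482 to 4636 in KO. Most of the mural sum came from Des, which cardiomyocytes also express strongly and which was at 1860 ± 131.7 CPM in WT and 2583 ± 404.7 in KO (SD, n = 6), while the smooth muscle markers Myh11 and Tagln were not called. Of 7 macrophage markers 1 was higher (Mrc1) and 2 lower (Adgre1 and Csf1r), and none of the 5 blood markers tested was called by edgeR (0 also at an unadjusted p under 0.05), with summed levels that overlapped between the groups. Beside these counts, 25.5% of all rows tested were called lower, 25.6% higher and 51.1% in either direction. The shares called among the cardiomyocyte (6 of 10), mural (5 of 8) and macrophage (3 of 7) markers were near the last of these. When each library was scaled to its cardiomyocyte markers, Sirt3 was lower, by -0.29 on the log2 scale (edgeR, standard error 0.083, adjusted p = 0.00672). This alternative was chosen after the data had been seen and moved the median of all rows by 0.19 on the log2 scale. Tnni3 (-0.889) and Mybpc3 (1.05) among these markers differed in opposite directions, so the scaling does not measure cardiomyocyte content. With that scaling Sirt2 was called higher, by 0.275 on the log2 scale (edgeR, adjusted p = 0.0145). The part of the marker levels in the fall of Sirt3 was not tested further.

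The span of Sirt3 shares 342 bases with Psmd13, a proteasome subunit gene on the opposite strand, and 61 bases with Ric8a. No source used here gives the strandedness of the counting, so which gene the reads of these bases came from is uncertain. The log2 fold change was 0.29 for Psmd13 (adjusted p = 0.000361 from edgeR), opposite in sign to that of Sirt3, and -0.08 for Ric8a (adjusted p = 0.361).

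The other mitochondrial sirtuins were not called. Sirt5 (chromosome 13, 43253567 to 43276820, plus strand) ranged from 21.2 to 27.1 CPM in WT, with a median of 25.05, and from 19.9 to 27.5 CPM in KO, with a median of 25.1. Its groups overlapped, and the log2 fold change was -0.01 with a 95% interval from -0.18 to 0.15 (adjusted p = 0.901 from edgeR). Sirt4 (chromosome 5, 122921081 to 122927738, minus strand) ranged from 10.04 to 13.1 CPM in WT, with a median of 11.9, and from 10.3 to 12.1 in KO, with a median of 11.2. Its KO range lay within that of WT, and the log2 fold change was -0.08, with a 95% interval from -0.25 to 0.095 (adjusted p = 0.462).

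Whether Sirt3 changed differently from the other sirtuins was tested on the ratio of Sirt3 to each of them within a heart, a comparison chosen after the values had been seen. In FPKM, Sirt3 was 4.85 ± 0.649 times Sirt4 in WT and 3.65 ± 0.319 times in KO (SD, n = 6; two-sided exact permutation p = 0.002165, 0.00433 after Benjamini-Hochberg adjustment over 6 ratios), and the groups did not overlap. The ratio to Sirt5 was 2.31 ± 0.325 in WT and 1.67 ± 0.175 in KO (SD, n = 6; exact permutation p = 0.00433, adjusted 0.00520), with ranges that met, 1.95 to 2.89 against 1.49 to 1.98. The level of this ratio depends on the gene length used: with counts per kilobase of the table's gene length it was 1.52 ± 0.213 in WT and 1.10 ± 0.115 in KO (SD, n = 6), and the log2 difference was the same, -0.46. All 6 ratios were lower in KO, with differences from -0.56 to -0.41 on the log2 scale and adjusted exact permutation p-values between 0.00433 and 0.00649. The 6 ratios share the Sirt3 values and are not independent of each other.

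**Figure D3:**
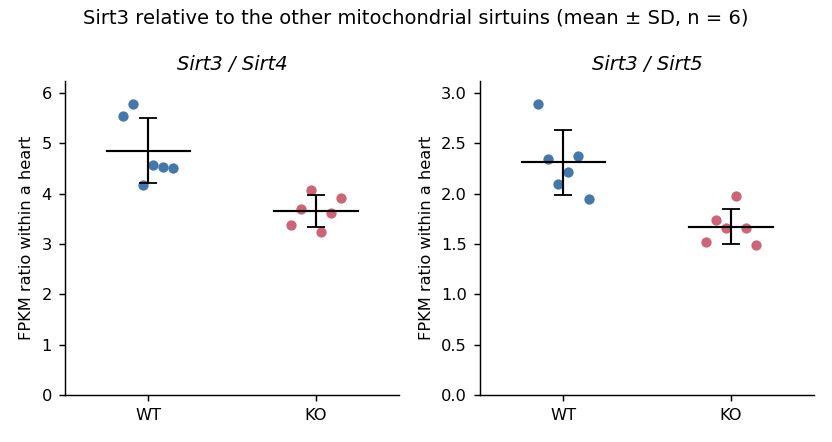
Ratio of Sirt3 to Sirt4 (left) and to Sirt5 (right) in FPKM within each heart; points are hearts, and bars the mean ± SD of 6. The ratio to Sirt4 ranges from 4.17 to 5.78 in WT and from 3.23 to 4.08 in KO, and that to Sirt5 from 1.95 to 2.89 and from 1.49 to 1.98.

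As a share of the summed FPKM of the 3 mitochondrial sirtuins, Sirt3 made up 60.8% ± 2.92 in WT and 53.3% ± 1.498 in KO (SD, n = 6). The share of Sirt5 was 26.6% ± 2.32 and 32.05% ± 2.41, and that of Sirt4 was 12.7% ± 1.15 and 14.7% ± 1.40. These shares depend on the gene length used. With counts per kilobase, Sirt3 was 1.52 times Sirt5 in WT and 1.10 times in KO, against 2.31 and 1.67 in FPKM. The summed FPKM of the 3 mitochondrial sirtuins ranged from 86.1 to 89.8 in WT and from 69.5 to 73.7 in KO, without overlap. Over all 7 genes the sum ranged from 187.9 to 198.8 FPKM in WT and from 170.0 to 190.9 in KO, where the ranges met. Sirt2 accounted for 41.5% ± 1.27 of this sum in WT and 46.6% ± 1.54 in KO, and Sirt3 for 27.8% ± 1.48 and 21.3% ± 1.12.

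The cytoplasmic member, Sirt2 (chromosome 7, 28505874 to 28529391, plus strand), ranged from 89.2 to 99.3 CPM in WT, with a median of 93.4, and from 90.2 to 109.7 CPM in KO, with a median of 96.8. KO replicates 5 and 6 lay above every WT heart and the other KO hearts within the WT range, so the groups overlapped. The log2 fold change was 0.08, with a 95% interval from -0.03 to 0.19 (adjusted p = 0.207 from edgeR). Sirt2 shares 778 bases with Nfkbib, an inhibitor of NF-kappa-B on the opposite strand, whose log2 fold change was -0.46 (adjusted p = 9.96e-05).

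Of the nuclear members, Sirt1 (chromosome 10, 65092512 to 65163403, minus strand) ranged from 19.3 to 25.3 CPM in WT, with a median of 23.8, and from 18.1 to 27.4 in KO, with a median of 22.1. The WT range lay within that of KO, whose lowest heart was replicate 3 and highest replicate 6. The log2 fold change of Sirt1 was -0.015, with a 95% interval from -0.22 to 0.19 (adjusted p = 0.914 from edgeR), which leaves room for a change between -13.9% and 13.9%.

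Sirt6 (chromosome 10, 85177628 to 85183638, minus strand) was the least abundant member, with 144 to 240 reads per library. It ranged from 5.50 to 8.56 CPM in WT, with a median of 6.84, and from 5.81 to 8.58 in KO, with a median of 7.68. Its groups overlapped almost entirely, and its 95% interval was the widest of the 7, from -0.19 to 0.36 around a log2 fold change of 0.09 (adjusted p = 0.606 from edgeR).

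Sirt7 (chromosome 11, 128882235 to 128889104, minus strand) ranged from 13.6 to 17.5 CPM in WT, with a median of 15.3, and from 14.4 to 16.9 in KO, with a median of 15. The KO range lay within that of WT. The log2 fold change was -0.03, with a 95% interval from -0.18 to 0.13 (adjusted p = 0.806), and Sirt7 shares 124 bases with Mafg, on the same strand, whose log2 fold change was -0.32 (adjusted p = 0.000215 from edgeR).

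**Figure D4:**
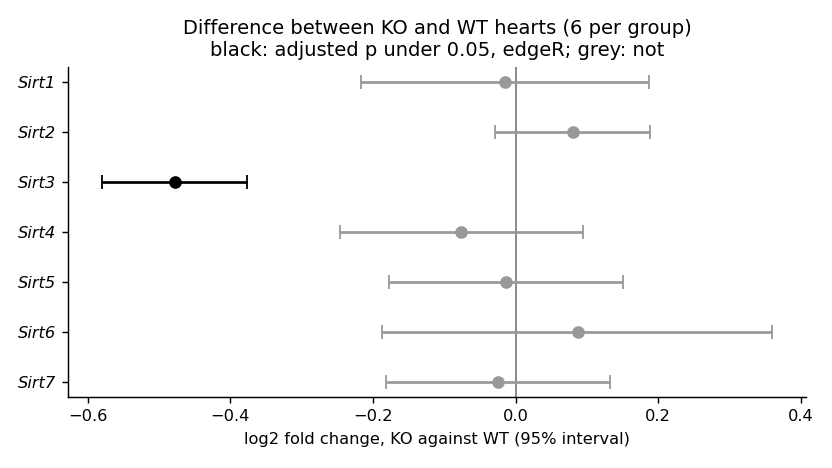
log2 fold change of each sirtuin, KO against WT, with its 95% interval from edgeR (6 hearts per group); black marks an adjusted p under 0.05 and grey the others. The interval of Sirt3 runs from -0.58 to -0.38, and those of the other 6 genes include 0.

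The genes whose pattern over the 12 hearts was most like that of Sirt3 were Nrd1, a metalloendopeptidase gene, Gpr108 and Nrbp1. Likeness was measured as the root-mean-square difference of log2 CPM, each gene centred on its own mean, among named genes with a mean of at least 5 CPM. This difference was 0.057 for all 3 genes, and their log2 fold changes were -0.49, -0.46 and -0.43. None of the 3 lies on chromosome 7 with Sirt3.

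Genes that work with the sirtuins were described from lists written from general knowledge. Of 24 genes listed as encoding substrates of SIRT3, SIRT4 or SIRT5, 21 were tested. That each encoded protein is such a substrate was not checked, Ucp2 among them. Of the 21 genes, 15 were lower and 0 higher in KO, with a median log2 fold change of -0.45. Beside this, 25.5% of all rows tested were lower and 25.6% higher, with a median of 0.002. The listed genes encode mitochondrial proteins, and the study reports that metabolic, TCA cycle and oxidative phosphorylation pathways fell in these hearts. Whether the listed genes differ from other mitochondrial genes was not tested. Aldh2, the mitochondrial aldehyde dehydrogenase, fell from 343 ± 20.3 to 168.9 ± 21.96 CPM (SD, n = 6), and Mccc1, a subunit of the leucine-degrading methylcrotonyl-CoA carboxylase, from 143 ± 5.45 to 78.1 ± 8.86, with log2 fold changes of -1.02 and -0.88. Sdha, the catalytic subunit of complex II, had a log2 fold change of -0.46 (adjusted p = 7.21e-06), close in size to that of Sirt3. By contrast, the study reports unchanged mRNA of the SDH subunits in its mutants, in a passage on hearts younger than the labels give. A supplementary figure of the study also marks differences in mRNA of mitochondrial complex subunits. The source of the difference for Sdha was not tested. Glud1, the glutamate dehydrogenase on which SIRT4 acts, had a log2 fold change of -0.13 (adjusted p = 0.0156). Where edgeR and limma-voom called 0 of these genes higher, DESeq2 called 1, and 1 gene, Ucp2, was higher in edgeR at an unadjusted p under 0.05 (adjusted p = 0.0727). The 6 tested genes not called were Ucp2, Slc25a4, Acadl, Tfam, Dlat and Opa1.

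Among 31 partners and regulators of the nuclear and cytoplasmic sirtuins, 7 were higher and 11 lower, with a median log2 fold change of -0.07, so 18 of 31 were called where 51.1% of all rows tested were, a share near the background. Hif1a, the oxygen-regulated transcription factor that SIRT1 and SIRT6 are known to bind, rose from 98.0 ± 6.52 to 178.3 ± 15.5 CPM (SD, n = 6; log2 fold change 0.86, adjusted p = 8.5e-09 from edgeR), and Nfkb1, an NF-kappa-B subunit, had a log2 fold change of 0.39. Nr1h3, the oxysterol receptor LXR-alpha that SIRT1 deacetylates, fell from 21.6 ± 0.989 to 8.89 ± 0.656 CPM (log2 fold change -1.28, adjusted p = 3.93e-10 from edgeR), and Nbn, a DNA repair gene, had a log2 fold change of -0.60. Of the direct regulators of SIRT1, the inhibitor Ccar2 was at 31.9 ± 2.35 CPM in WT and 30.5 ± 1.98 in KO (adjusted p = 0.409). The activator Rps19bp1 fell from 10.2 ± 1.28 to 8.17 ± 0.683 CPM (adjusted p = 0.0117 from edgeR). Ppargc1a, the PGC-1-alpha coactivator known to raise Sirt3 through estrogen-related receptors, was at 120.5 ± 6.94 CPM in WT and at 118.1 ± 32.5 in KO, a larger spread (log2 fold change -0.03, 95% interval -0.35 to 0.29, adjusted p = 0.891). By contrast, the study reports lower PGC-1-alpha and other mitochondrial biogenesis regulators in its mutants, from immunoblots and qPCR. The source of this difference was not tested.

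The zinc-dependent histone deacetylases (HDACs), the other large family of lysine deacetylases, had 3 higher and 6 lower of 11 genes, beside 25.6% and 25.5% of all rows tested, with a median log2 fold change of -0.16. Hdac5 and Hdac11 had log2 fold changes of -0.68 and -1.002 (adjusted p = 1.16e-07 and 5.39e-06 from edgeR). Hdac7, Hdac1 and Hdac6 were the higher members, with log2 fold changes of 0.23, 0.20 and 0.18, and Hdac2 and Hdac8 were not called. The enzymes that add acetyl groups had 4 higher and 3 lower of 12 genes tested, with a median of 0.10, so 7 of 12 were called, again near the 51.1% of all rows tested. Kat2b (PCAF), Crebbp, Ep300 and Kat6a had log2 fold changes of 0.28, 0.21, 0.16 and 0.14. Kat8, Naa40 (which acetylates the amino terminus of histones, not lysine) and Kat5 had log2 fold changes of -0.63, -0.30 and -0.20.

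NAD+ supply and the other NAD+-consuming enzymes had 3 higher and 9 lower of 17 genes tested, beside 25.6% and 25.5% of all rows tested, with a median log2 fold change of -0.175. Nampt, the rate-limiting enzyme of NAD+ salvage, fell from 349 ± 25.2 to 156.6 ± 7.84 CPM (SD, n = 6; log2 fold change -1.16, adjusted p = 9.72e-11 from edgeR), and Nadk2, the mitochondrial NAD kinase, had a log2 fold change of -1.23. Nmrk2, the muscle nicotinamide riboside kinase, rose by 7.21 on the log2 scale, Cd38, an NAD+ glycohydrolase, by 0.525 and Parp3 by 0.42. The NAD+-consuming enzymes thus differed in both directions: Parp1 and Parp2 were lower, with log2 fold changes of -0.456 and -0.451 (adjusted p = 9.56e-06 and 6.61e-05 from edgeR). The spans, introns included, of 42 of the 92 tested genes in these 5 lists overlap another row with counts. Among them are Aldh2, Mccc1, Sdha, Hif1a, Nfkb1, Nr1h3, Ccar2, Ppargc1a, Hdac7, Hdac11, Ep300, Crebbp, Kat8, Kat5, Nampt, Nmrk2, Cd38, Parp1 and Parp3. The cardiomyocyte markers Tnni3, Pln, Myl3, Myl2, Ttn, Myh6 and Actc1 overlap another row too. For which gene the reads of shared bases were counted, if any, is uncertain.

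With the libraries scaled to their cardiomyocyte markers, 6222 rows were higher and 2228 lower, against 4391 and 4376 with TMM. The numbers higher and lower then became 4 and 13 for the mitochondrial substrates, 11 and 4 for the partners and regulators, 3 and 3 for the HDACs, 7 and 1 for the acetyltransferases, and 5 and 7 for the NAD+ genes.

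**Figure D5:**
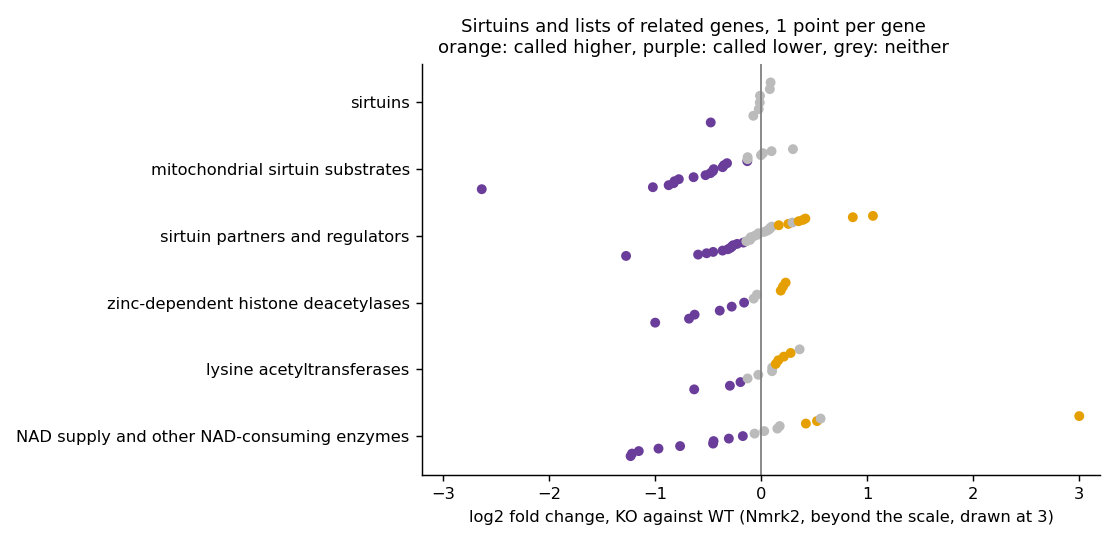
log2 fold change (KO against WT) of every tested gene of the sirtuins and the 5 related lists, 1 point per gene, with Nmrk2 (7.21) drawn at the edge of the scale; orange marks genes called higher and purple genes called lower at an adjusted p under 0.05 (edgeR). The mitochondrial substrates hold 15 purple and 0 orange points, and the sirtuins 1 purple point, Sirt3.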

How the data were processed

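The labels name HISAT2 2.0.5 and mm10 among the submitters' processing notes. The identifiers of the table are those of the C57BL/6NJ strain, and its chromosome 1 reaches base 208807027, beyond mm10, so coordinates are given on C57BL/6NJ. The authors counted reads per gene with HTSeq and deposited raw counts. The authors also deposited FPKM per library, group means (FPKM, and a signal of counts scaled for library size) and their DESeq comparison; the last holds log2 fold changes and p-values and was not used. The strand setting is not given in the sources used here.

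Counts were tested in R 4.3.3 with edgeR 4.0.16 (filterByExpr, TMM, robust quasi-likelihood test, Benjamini-Hochberg adjustment over 17155 rows), and standard errors came from the F statistic. Alternatives used DESeq2 1.42.0 and limma 3.58.1 (voom), other scalings and filters, and each library left out. The code was tested on simulated data. Nothing states which hearts came from the same litter, or how replicates were raised beyond 1 label per library. The p-values therefore measure the spread between these libraries. Intervals are 95% intervals of the fit.

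The members and the gene lists were chosen with earlier results of these data known. Named were all sirtuins, Sdhaf4, the 2 called genes with the smallest p per list and direction (all where 5 or fewer), and the 3 genes most like Sirt3. Sdha, Glud1, Ccar2, Rps19bp1, Ppargc1a, Parp1 and Parp2, the uncalled genes and the markers were added after their values were seen. Sod2, Lyz2, Hbb-bs and Hba-a2 of the lists were not analysed here. The values of 1 gene of the lists are not reported here, and it remains in the counts and medians.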

Additional observations from a re-analysis of the deposited data

Results flagged for a closer look

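Dixon's test was applied to the 6 values of each group for the sirtuins and for the genes that the naming rule takes from the lists and the markers, 86 sets in all, and 3 held a heart whose distance from the next was over 0.625 of the whole range, the 95% critical value. Chance alone gives about 4.3 such sets, and none of the 3 concerned a sirtuin. Tnni3, a cardiomyocyte marker, was at 3332 CPM in WT replicate 6 against 3773 to 4019 in the other WT hearts. Pdgfrb, a mural marker, was at 119.7 CPM in KO replicate 3 against 160.4 to 178.4 in the other KO hearts. Sdhaf4 was at 2.73 CPM in KO replicate 1 against 2.25 to 2.42 in the other KO hearts.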

How the results depend on the processing

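Sirt3 kept its direction and an adjusted p under 0.05 in all 24 alternatives, with log2 fold changes from -0.50 to -0.46 when each library was left out and from -0.52 to -0.29 otherwise. Of the other sirtuins, Sirt2 was called in 1 alternative, the scaling to cardiomyocyte markers (0.275), where 1 sirtuin was higher and 2228 rows were lower, and the uncalled values of Sirt1, Sirt4, Sirt5 and Sirt7 turned positive (0.18, 0.13, 0.18 and 0.17). With single libraries left out, uncalled values near 0 changed sign: Sirt1 ranged from -0.079 to 0.037, Sirt5 from -0.062 to 0.041 and Sirt7 from -0.063 to 0.005. The same scaling gave 4 mitochondrial substrates higher (1 with DESeq2, and 0 to 1 with a library left out, 1 without KO replicate 6), 11 partners higher and 4 lower, 3 HDACs lower, 7 acetyltransferases higher and 1 lower, and 5 NAD+ genes higher, and Naa40 lost its call (log2 fold change -0.10). Counts per kilobase kept 4 of 7 members at their KO rank; the share of Sirt2 in the WT sum became 36.05%, that of Sirt5 18.99% and that of Sirt7 3.86%. The ratios of Sirt3 to Sirt4 and to Sirt5 were lower in all 13 alternatives each, which leave out libraries.

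The groups share replicate numbers, but the deviations of same-numbered libraries correlated at -0.16 to 0.02. Of 12 libraries, 1 correlated best with its own number. These values gave no sign that the numbers pair the hearts, but they cannot exclude a pairing by litter or handling. With the replicate block, Sirt3 had a log2 fold change of -0.477 (adjusted p = 3.45e-05), 4123 rows were higher and 4110 lower, and no sirtuin changed its call. Sirt6 had the fewest reads, 144 to 240 per library, the largest coefficients of variation, 15.2% in WT and 16.3% in KO, and the widest interval; how much of this is counting error was not tested.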
